A study of Drosophila melanogaster with 12 samples.

Results

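Olfactory sensory neurons of Drosophila can be tuned at their own axon terminals by peptides and transmitters. Here 6 listed genes of this presynaptic tuning were followed, namely the short neuropeptide F gene sNPF, its receptor sNPF-R, the tachykinin receptor TkR99D, the insulin receptor InR, and the subunits GABA-B-R1 and GABA-B-R2 of the metabotropic GABA receptor. The list was set by the genes' known roles, but with earlier results of these data known. Of the 6 genes, 5 were matched by identifier to the 15682 genes of the deposited counts. InR was not analysed here, because the gene tables used pair its symbol with no identifier of those counts.

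The libraries came from amos mutant and wild-type Drosophila melanogaster, in adult antennae and in antennal discs of instar 3 larvae, with 3 libraries in each of the 4 groups. The amos animals carried the amos3 allele of amos, a proneural gene needed to form part of the olfactory sensilla, and the controls were w1118. The paper describes back-crossing of mutants only for its microarrays, so the amos allele and strain background cannot be told apart here. Adults of both sexes were 0 to 4 h old and gave about 300 antennae per sample, and 50 discs were pooled per disc sample after manual separation from the eye disc. All animals were reared at 22 °C. The antenna also holds mechanosensory neurons, glia, epithelium and support cells, so that the RNA was not that of olfactory neurons alone.

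In this circuit, olfactory neurons synapse in the antennal lobe, and their transmitter release is held down by GABA and tachykinin from local interneurons. GABA acts partly through the GABA-B receptor, which in mammals works as a pair whose first subunit binds GABA while the other couples to G proteins. sNPF is released by olfactory neurons themselves, and hunger, through low insulin signalling, raises sNPF-R and so facilitates release. The receptor messages measured here are those of cell bodies in the antenna, while the local interneurons lie in the brain.

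Reads counted on genes numbered 36396746 to 50252338 in amos antennae, 25150198 to 25721392 in control antennae, 39247300 to 43984887 in amos discs and 26796503 to 27661261 in control discs. A floor of 3 reads corresponded to between 0.0597 and 0.119 CPM in adult libraries, where CPM counts reads per 1000000 reads on genes, and it covers counting error only. Each amos library was deeper than any control library, so depth and the genotype cannot be told apart. Orco, the co-receptor of odorant receptors, had 3476, 5785 and 2194 reads in amos antennae, against 79720, 74946 and 69637 in control antennae, which follows the labels. Summed CPM of 6 pan-neuronal genes was 898 to 1157 in amos antennae and 1710 to 1807 in control antennae. Markers of other cells were also unequal in adults. The summed CPM of 4 support cell genes was 167 to 184 in amos antennae and 3875 to 4300 in control antennae. That of 5 glia genes was 6772 to 7502 in amos antennae and 6001 to 6669 in control antennae. Single genes made up most of both sums in control antennae, where lush averaged 3662 CPM and Gs2 5120 CPM. By edgeR 3 of the 4 support cell genes were called lower in amos antennae and 1 was not called. Of 4 glia genes tested 1 was called, repo, and it was lower, so the glia sum does not show a rise of these genes as a set. In edgeR 2 of 4 muscle genes and 1 of 4 hemocyte genes, Pxn, were called higher in amos antennae. Of the genes tested, 2 of 3 eye genes and 1 of 2 fat body genes were called lower. Over all genes tested 22.7% were called higher and 24.4% lower. The summed CPM of 4 muscle genes was 100 to 224 in amos antennae and 4.40 to 93.0 in control antennae, and that of 4 hemocyte genes was 122 to 135 in amos antennae and 34.7 to 40.9 in control antennae. The summed CPM of 4 fat body genes was 14.8 to 23.8 in amos antennae and 25.7 to 27.0 in control antennae, and that of 6 eye genes was 1.01 to 1.32 in amos antennae and 2.70 to 3.15 in control antennae. The part of these markers in the results on the tuning genes was not tested. In bulk tissue, fewer cells of a type and less RNA per cell cannot be told apart.

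The genes spanned more than 3 orders of magnitude in the adult antenna. The scale used to compare genes is FPKM, the CPM of a gene per 1000 bp of its exons. sNPF led, at 101 ± 20.0 FPKM in amos antennae and 106 ± 3.06 FPKM in control antennae (SD, n = 3 each), which put it at rank 771 in amos and 729 in control among 15002 genes with an exon length. The subunits of the GABA-B receptor came next. GABA-B-R1 averaged 21.2 ± 1.44 FPKM in amos antennae and 59.3 ± 1.38 FPKM in control antennae (SD, n = 3 each). GABA-B-R2 followed at 19.2 ± 2.73 FPKM in amos antennae and 28.8 ± 2.14 FPKM in control antennae (SD, n = 3 each). sNPF-R was at 3.07 ± 0.169 FPKM in amos antennae and 3.82 ± 0.131 FPKM in control antennae (SD, n = 3 each). In control antennae, none of these 4 genes overlapped its neighbour in the order. In amos antennae the libraries of GABA-B-R1 and GABA-B-R2 overlapped, so that the order of these subunits could not be told there. TkR99D came last in both genotypes and is described with the receptors.

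**Figure D1:**
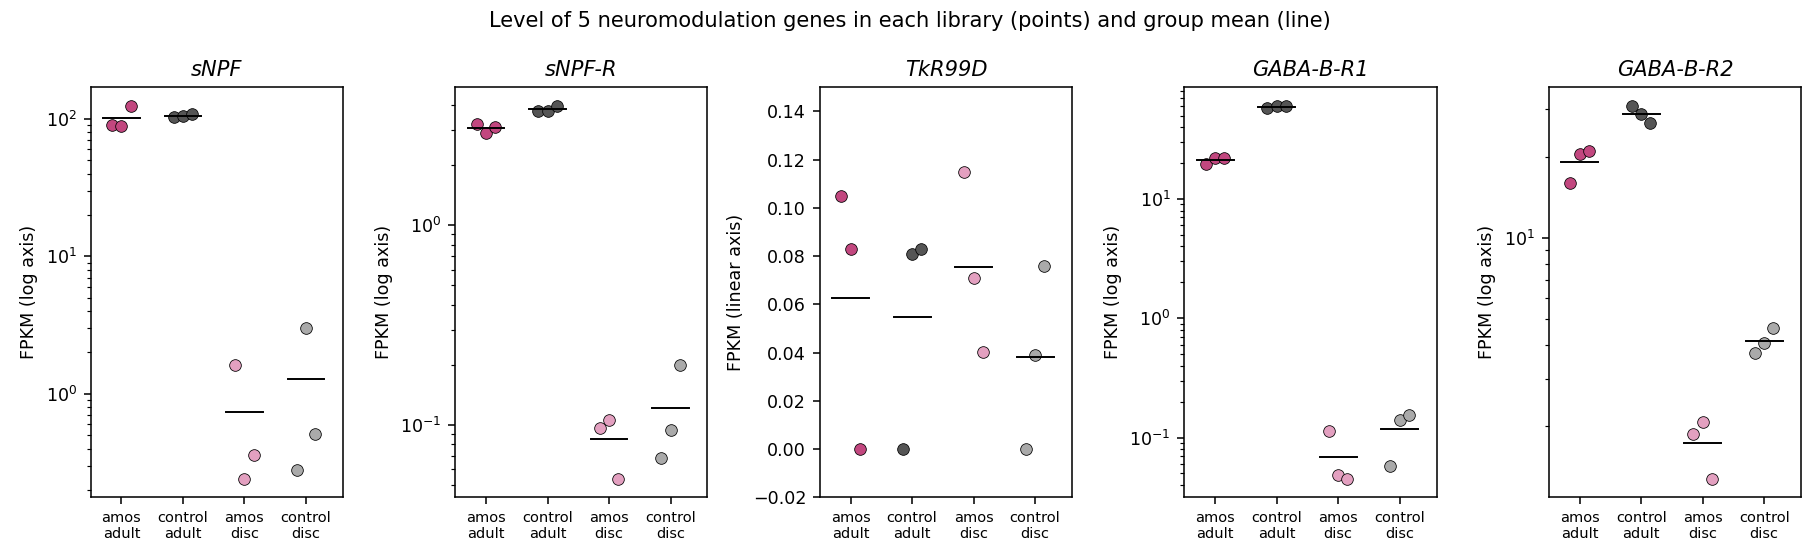
FPKM of each gene in each of the 12 libraries, with amos adult, control adult, amos disc and control disc groups from left to right; points are libraries, lines are group means, and the axis is logarithmic except for TkR99D. The 3 amos antennae lie below the 3 control antennae for sNPF-R, GABA-B-R1 and GABA-B-R2 but not for sNPF, and the disc libraries lie far below the adult ones for all but TkR99D.

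The first question was how the genes differ between amos and control antennae. GABA-B-R1 was the gene that changed most, and GABA-B-R2 and sNPF-R fell by less, while the means of the peptide gene sNPF differed by less than the spread of the amos libraries and the gene was not called. Of the 4 genes with enough reads for the test, 3 fell at an adjusted p of 0.05 in edgeR's quasi-likelihood test, against 47.0% of all 9724 genes called in either direction, 22.7% called higher and 24.4% called lower. The median log2 fold change of the 4 was -0.47, beside 0.00 over all genes tested. Overlap of libraries between groups is given below for single genes. The share of all genes without overlap was not computed, in antennae or in discs.

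The ligand sNPF, on chromosome arm 2L from 20027915 to 20056373 (plus strand, BDGP6.54 assembly with the Ensembl release 115 annotation), encodes the precursor of the sNPF peptides. It had 221, 219 and 304 CPM in amos antennae (8029, 10997 and 11624 reads), against 252, 258 and 267 CPM in control antennae (6470, 6625 and 6708 reads). Libraries 1 and 2 of amos lay below all controls and library 3 above all of them, so the groups overlapped. Its log2 fold change was -0.08 with a standard error of 0.15 and a 95% interval of -0.42 to 0.26 (edgeR adjusted p = 0.673). The interval allows a fall or a rise of modest size and does not show equal levels. The value rested on single libraries. Without amos library 3 it was -0.26 with an edgeR adjusted p of 0.0142, and without amos library 1 or 2 it was 0.03 or 0.01.

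Its receptor sNPF-R (3L, 20058511 to 20089007, minus strand), coupled to G proteins, had 15.3, 13.7 and 14.7 CPM in amos antennae (557, 689 and 561 reads). Control antennae had 17.7, 17.9 and 18.9 CPM (455, 459 and 474 reads). All 3 amos libraries were below all 3 controls. This gave a log2 fold change of -0.34 (standard error 0.083, 95% interval -0.53 to -0.15, edgeR adjusted p = 0.0116), so that amos antennae held 80.3% of the control mean. This call was lost without control library 7, at -0.31 (edgeR adjusted p = 0.0554), in one fit over all 12 samples, at -0.25 (0.460), and when libraries were scaled on 79 ribosomal protein genes, at -0.09 (0.536). That last scaling moved the median of all genes to 0.25 in the adult comparison. Relative to that shift, sNPF-R was again lower.

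GABA-B-R1 (2L, 15016331 to 15034704, plus strand) had 110.5, 125 and 124 CPM in amos antennae (4023, 6297 and 4723 reads), against 326, 340.3 and 338 CPM in control antennae (8371, 8752 and 8505 reads). The 3 amos libraries were all far below the controls, at 35.8% of the control mean. The log2 fold change was -1.50 (standard error 0.086, 95% interval -1.70 to -1.30, edgeR adjusted p = 7.86e-06). It stayed between -1.53 and -1.42 with any 1 library left out, and was -1.25 with ribosomal protein scaling (edgeR adjusted p = 9.62e-05). The gene's span contains CG31832 and CG33310, which share 0 exon bases with it and had at most 7 and 35 reads in a library.

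GABA-B-R2 (3R, 21770333 to 21775840, minus strand) had 64.0, 81.6 and 84.0 CPM in amos antennae (2330, 4102 and 3205 reads), against 123, 115 and 106 CPM in control antennae (3167, 2955 and 2671 reads). The groups did not overlap. The log2 fold change was -0.60 (standard error 0.13, 95% interval -0.90 to -0.31, edgeR adjusted p = 0.00591), and with ribosomal protein scaling it was -0.34 and no longer past the threshold (edgeR adjusted p = 0.124).

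TkR99D (3R, 29950796 to 29969447, minus strand), the receptor through which tachykinin inhibits olfactory terminals, was close to the detection floor. It had 11, 12 and 0 reads in amos antennae and 0, 6 and 6 reads in control antennae, which is 0.302, 0.239 and 0 CPM against 0, 0.233 and 0.239 CPM. In discs it had 13, 9 and 5 reads in amos and 0, 3 and 6 reads in control libraries. The groups overlapped in both tissues, the gene did not pass edgeR's filter on low counts, and a difference was not detectable at this depth.

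**Figure D2:**
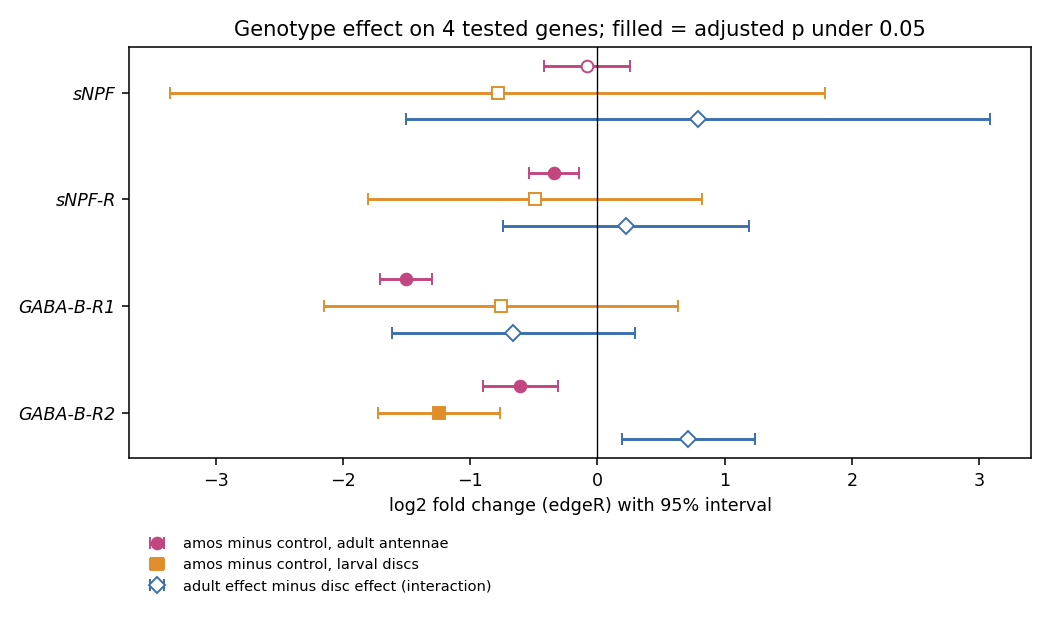
Log2 fold change of amos against control in adult antennae (circles) and larval discs (squares), and the adult effect less the disc effect (diamonds), for the 4 tested genes with 95% intervals from edgeR; filled symbols have an adjusted p under 0.05. The adult intervals of sNPF-R, GABA-B-R1 and GABA-B-R2 and the disc interval of GABA-B-R2 lie below 0 and are filled, and the disc intervals of the other 3 genes are several times wider.

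Because all summed neuronal markers were lower in amos antennae, each gene was also expressed per 1000 reads on the 6 pan-neuronal genes of the same library, a ratio that does not depend on how libraries are scaled. With 3 libraries against 3, no 2-sided exact permutation test can go below 0.1, so these ratios are given as values. The denominator itself was lower in amos, so a gene whose CPM does not change rises on it. The share of all genes that rise on it was not computed. sNPF, whose CPM was not called different, was at 235 ± 34.4 in amos antennae and 147 ± 4.65 in control antennae (SD, n = 3 each), which is 1.59-fold higher with no overlap. sNPF-R was at 14.0 ± 2.61 in amos antennae and 10.3 ± 0.428 in control antennae (SD, n = 3 each), again with no overlap. The subunits of the GABA-B receptor did not follow this pattern. GABA-B-R1 was at 114 ± 8.14 in amos antennae and 190.5 ± 2.10 in control antennae (SD, n = 3 each), 0.599 of the control ratio, with no overlap. GABA-B-R2 was at 72.4 ± 1.09 in amos antennae and 65.4 ± 6.03 in control antennae (SD, n = 3 each), and here the groups overlapped. On this denominator sNPF and sNPF-R took a larger share, and GABA-B-R1 a smaller share, in amos. With 15 synaptic release genes as the denominator, the log2 ratios were 0.40 for sNPF, 0.17 for sNPF-R, -1.001 for GABA-B-R1 and -0.11 for GABA-B-R2, so the direction of GABA-B-R2 depends on the denominator. Per 1000 synaptic release reads sNPF-R had 5.24, 3.85 and 4.42 reads in amos antennae and 4.02, 3.81 and 4.12 reads in control antennae, so that its groups overlapped. Neither denominator separates olfactory neurons from the mechanosensory neurons of the antenna.

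The balance of the GABA-B subunits did not overlap between the genotypes. The ratio of GABA-B-R1 to GABA-B-R2 in FPKM, chosen after the values had been seen, was 1.12 ± 0.0933 in amos antennae and 2.07 ± 0.192 in control antennae (SD, n = 3 each), with no overlap. The ratio of sNPF to GABA-B-R1 was 4.77 ± 0.837 in amos antennae and 1.78 ± 0.0366 in control antennae (SD, n = 3 each), also with no overlap. The ratio of sNPF to its receptor was 33.0 ± 6.37 in amos antennae and 27.7 ± 0.285 in control antennae (SD, n = 3 each), and the groups overlapped. All 3 pairs that hold GABA-B-R1 share the fall of that gene, so their ratios are not results apart from it. How many pairs among all genes would not overlap was not computed.

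**Figure D3:**
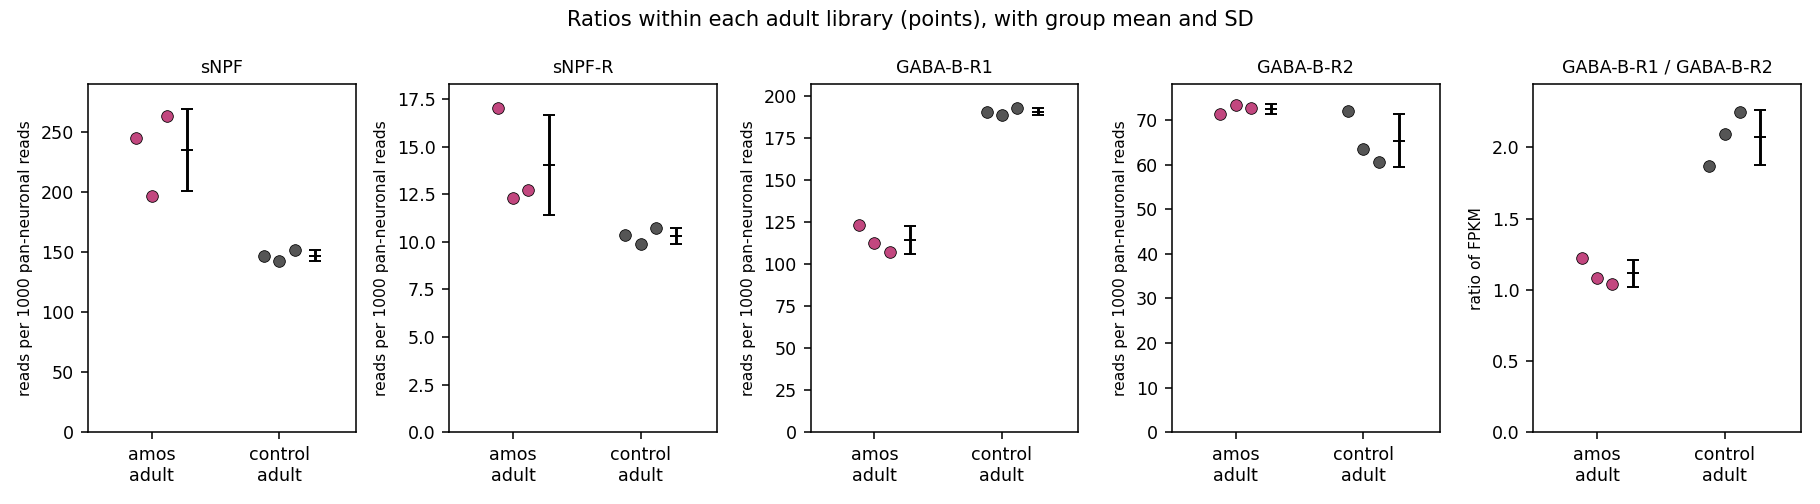
Reads of each tested gene per 1000 reads on 6 pan-neuronal genes, and the FPKM ratio of GABA-B-R1 to GABA-B-R2, in each adult library; amos is left of control, points are libraries, and bars are the mean and SD (n = 3). The amos points lie above the control points for sNPF and sNPF-R, below them for GABA-B-R1 and for the subunit ratio, and among them for GABA-B-R2.

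The surrounding pathway genes did not move as one in adult antennae, where 24.4% of all tested genes fell and 22.7% rose. Among 26 tested neuropeptide receptors, 14 fell and 5 rose, with a median log2 fold change of -0.62. The largest falls were in ETHR, the receptor of ecdysis triggering hormone (-3.68, edgeR adjusted p = 1.44e-06), CCHa1-R (-2.72, 0.000159) and NPFR, the receptor of neuropeptide F (-2.61, 9.70e-05). The last 2 had low counts, with 24, 19 and 13 reads for CCHa1-R and 18, 31 and 21 reads for NPFR in amos antennae. The largest rises were in CNMaR (4.03, edgeR adjusted p = 9.68e-05), the corazonin receptor CrzR (0.84, 0.00886) and PK1-R (0.83, 0.000807). CNMaR had 80, 126 and 123 reads in amos antennae and 4, 6 and 2 reads in control antennae. Its control counts were near the floor, so the size of its rise is uncertain. TkR86C, the other tachykinin-type receptor, rose by 0.55 (edgeR adjusted p = 0.000868), with 26.3, 26.1 and 26.2 CPM in amos antennae and 18.8, 16.6 and 17.5 CPM in control antennae. It was thus well above the floor in the libraries where TkR99D was near it. With ribosomal protein scaling 11 receptors fell and 5 rose, while of all 9724 genes 1268 fell and 3567 rose.

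Of 5 tested peptide ligands, 3 rose. They were Tk, which encodes tachykinins (2.17 on the log2 scale, edgeR adjusted p = 0.00133), the relaxin-like peptide gene Ilp8 (1.76, 0.000608) and the insulin-like peptide gene Ilp6 (1.19, 3.74e-05). Tk had 79, 132 and 58 reads in amos antennae and 16, 8 and 11 reads in control antennae, low counts that did not overlap. In the insulin pathway, where InR itself was not analysed, 16 of 19 tested genes were not called, and the median log2 fold change was 0.02. The exceptions were the secreted insulin binders Sdr, which rose by 1.24 (edgeR adjusted p = 3.79e-05), and ImpL2, which fell by 1.45 (0.0119), and the TSC complex gene gig, which rose by 0.40 (0.0181).

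Other genes of GABA signalling included further decreases. Rdl, a subunit of the ionotropic GABA receptor, had 72.1, 76.0 and 67.1 CPM in amos antennae, against 135, 149.6 and 127 CPM in control antennae, and fell by 0.96 on the log2 scale (edgeR adjusted p = 7.09e-05). Lcch3 fell by 1.75 (0.00494) and Grd rose by 0.76 (0.0168), both at under 3 CPM. GABA-B-R3 had 3.13, 4.52 and 1.78 CPM in amos antennae and 5.64, 6.14 and 4.45 CPM in control antennae, and its log2 fold change of -0.80 was not past the threshold in edgeR (adjusted p = 0.0658). The plasma membrane GABA transporter Gat fell by 1.34 (edgeR adjusted p = 8.23e-06) and the vesicular transporter VGAT by 1.39 (0.0178), while the GABA-degrading enzymes Gabat and Ssadh rose by 0.35 (0.0150) and 0.50 (0.00128). VGAT too was under 3 CPM in every adult library. Gad1, the enzyme that makes GABA, had 0, 2 and 0 reads in amos antennae and 0 reads in each control library.

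Genes that act downstream or beside the receptors were also mixed. Of 21 G protein and effector genes, 9 fell and 5 rose, including Galphaf (-2.69, edgeR adjusted p = 6.40e-06) and the calcium channel genes cac (-1.03, 7.81e-05) and Ca-alpha1D (-1.05, 0.00617) among the falls. The inhibitory G protein gene Galphai (0.70, edgeR adjusted p = 0.000184), the potassium channel gene Irk3 (0.57, 0.00210) and the receptor kinase gene Gprk1 (0.45, 0.00162) were among the rises. The biogenic amine receptors were called about as often as all genes. Of 16 tested 4 fell, among them DopEcR (-2.21, edgeR adjusted p = 2.95e-05), Oamb (-2.01, 4.51e-05) and Octbeta3R (-1.01, 6.71e-05), and 4 rose, among them 5-HT2A (1.56, 0.000339), Dop2R (1.00, 0.000816) and TyrR (0.92, 0.0222). Of 10 peptide processing and release genes 4 fell and 3 rose, beside 24.4% and 22.7% of all genes. The prohormone convertase gene amon (-0.95, edgeR adjusted p = 3.16e-05), its helper 7B2 (-0.90, 2.56e-05) and Cadps (-0.37, 0.0321) fell, and Fur1 (1.64, 0.00411), Sytalpha (1.41, 0.000147) and Sytbeta (0.67, 0.00318) rose. The call for Cadps was lost with ribosomal protein scaling (-0.11, edgeR adjusted p = 0.609). Under that scaling 5 G protein and effector genes fell and 6 rose, while of all 9724 genes 1268 fell and 3567 rose.

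Neuronal genes that are not specific to this tuning were also tested. Of 6 pan-neuronal genes 5 fell (median -0.74), among them elav (-0.99, edgeR adjusted p = 7.09e-05), Syt1 (-0.94, 0.000233) and nSyb (-0.75, 0.000487). With ribosomal protein scaling 3 of them fell, as did 5 of the 15 synaptic release genes, beside 1268 of all 9724 genes. Of 15 synaptic release genes 8 fell, with Rim (-1.35, edgeR adjusted p = 0.000183) and ChAT (-0.81, 8.14e-05) among them, and 2 rose, Snap25 (1.27, 8.13e-05) and Rop (0.35, 0.0124). The log2 fold change of GABA-B-R1, -1.50, was thus below that of every tested pan-neuronal gene, whose range was -0.99 to -0.33. The olfactory co-receptors were split, since Orco fell by 5.06 (edgeR adjusted p = 3.86e-06), whereas Ir8a (1.49, 9.69e-05), Ir76b (1.26, 1.21e-05) and Ir25a (0.40, 0.00479) rose. Whether the changes of the receptors follow this change in the neurons present was not tested.

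**Figure D4:**
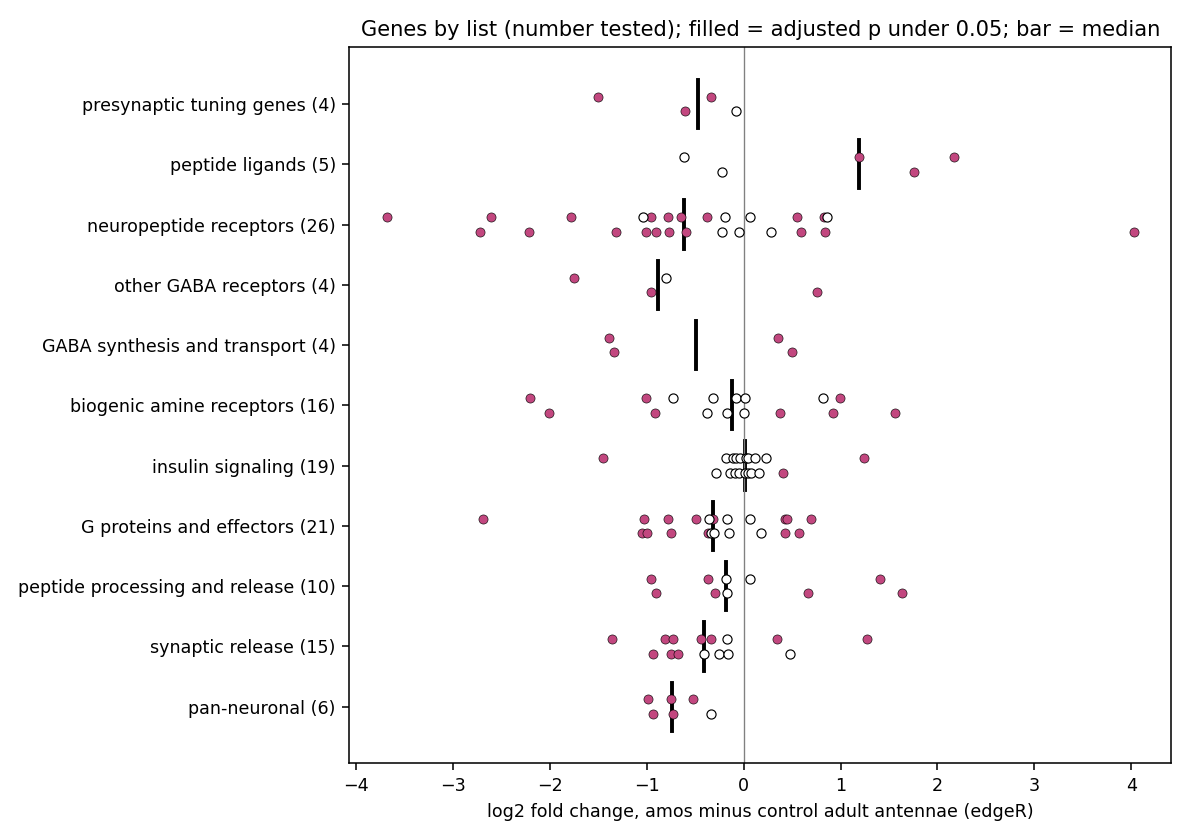
Log2 fold change of amos against control adult antennae from edgeR for the 4 tested genes and for 10 lists of related genes; each point is a gene, filled points have an adjusted p under 0.05, bars are list medians, and numbers in brackets are the genes tested. Peptide ligands lie mostly to the right of 0 with a median of 1.19, pan-neuronal genes all lie to the left, and insulin signaling genes cluster at 0.

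The second question was what the genes do in the larval discs, before the olfactory neurons of the antenna have matured. Only GABA-B-R2 was called there, lower in amos. This is 1 of 4 tested genes, against 13.2% of all 8909 genes called in either direction with 6.57% called higher and 6.63% called lower. GABA-B-R2 had 7.44, 8.25 and 5.10 CPM in amos discs (292, 363 and 220 reads), against 14.9, 16.3 and 18.5 CPM in control discs (412, 437 and 507 reads). The groups did not overlap. Its log2 fold change was -1.24 (standard error 0.20, 95% interval -1.72 to -0.76, edgeR adjusted p = 0.0160). The call was lost without control library 1 (-1.30, edgeR adjusted p = 0.0552) or without amos library 1 (-1.28, 0.0663), although the size barely moved. The summed CPM of 6 eye genes was also lower in amos discs, at 122 to 161, against 242 to 323 in control discs, with no overlap. Summed CPM of the 6 pan-neuronal genes overlapped, at 52.7 to 80.1 in amos discs and 63.1 to 97.4 in control discs. Glia genes summed to 264 to 290.3 CPM in amos discs and 333 to 463 CPM in control discs, with no overlap. Muscle genes summed to 50.4 to 65.1 CPM in amos discs and 93.7 to 802 CPM in control discs. The part of these markers in the result on GABA-B-R2 was not tested.

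The other genes were low in discs. sNPF had 155, 26 and 38 reads in amos discs (3.95, 0.591 and 0.881 CPM) and 19, 199 and 34 reads in control discs (0.687, 7.43 and 1.24 CPM). Library 1 of amos and library 2 of control stood apart from the other 4, so the spread within groups exceeded the difference between them. Those libraries also had the highest pan-neuronal sum of their group (80.1 and 97.4 CPM), and control library 2 had the highest fat body sum of all discs (2402 CPM, against 31.3 to 352 CPM in the other 5), and the part of these in the sNPF counts was not tested. The log2 fold change was -0.78 (standard error 1.07, edgeR adjusted p = 0.639), and it was 0.91 without control library 2.

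sNPF-R had 18, 22 and 11 reads in amos discs and 9, 12 and 26 reads in control discs, which overlapped. Its log2 fold change was -0.49 (edgeR adjusted p = 0.563). GABA-B-R1 had 25, 12 and 11 reads in amos discs and 9, 21 and 24 reads in control discs, which overlapped too, and its log2 fold change was -0.76 (edgeR adjusted p = 0.394). With so few reads, the 95% interval for GABA-B-R1 was -2.15 to 0.63, which holds the adult value of -1.50.

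Among the related genes, 0 of 19 insulin signaling genes and 0 of 15 synaptic release genes were called in discs by edgeR. At an unadjusted p under 0.05 the counts were 1 and 4, beside 2926 of all 8909 genes. DESeq2 called 1 and 3, beside 2159 of all 8909 genes. On those counts insulin signaling genes were called less often than all genes, and synaptic release genes nearly as often. The lists are small, and no test was run on them. The genes called included TkR86C, which had 165, 195 and 219 reads in amos discs and 2, 14 and 1 reads in control discs (log2 fold change 4.45, edgeR adjusted p = 0.0245). Lkr, the leucokinin receptor, fell by 3.69 (edgeR adjusted p = 0.0371), with 3, 5 and 0 reads in amos discs and 26, 28 and 17 in control discs. Ilp8 fell by 2.28 (0.0273) and the octopamine receptor gene Octalpha2R by 3.28 (0.0443). Pal2, an enzyme of peptide amidation, fell by 1.81 (0.0449), Gprk1 rose by 0.47 (0.0113), and the neuronal microtubule gene futsch fell by 1.10 (0.0430), a call that was lost with ribosomal protein scaling (-1.21, adjusted p = 0.0516). Orco had 1, 2 and 1 reads in amos discs and 38, 58 and 63 reads in control discs. These are 0.0351% of the adult level in amos and 0.0664% in control, and whether disc cells made them was not tested.

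The third question was how the genes differ between adult antennae and discs. These comparisons use the same libraries as those above. In control animals all 4 tested genes were higher in adults, against 86.6% of all 9770 genes called in either direction with 43.2% called higher and 43.4% lower. In amos animals all 4 were again higher, against 85.6% of all 9985 genes called in either direction with 43.8% called higher and 41.8% lower. GABA-B-R1 was the most unequal, with an adult over disc log2 fold change of 8.62 in amos and 9.24 in control (edgeR adjusted p = 1.12e-07 and 5.38e-07). Its disc level was 0.324% of the adult level in amos and 0.198% in control. sNPF was higher by 7.46 in amos and 6.64 in control (2.57e-05 and 0.000419), and sNPF-R by 5.50 in amos and 5.24 in control (6.73e-07 and 1.64e-05). GABA-B-R2 differed least, by 3.80 in amos and 3.06 in control (1.45e-06 and 7.01e-07), and its discs held 9.06% of the adult level in amos and 14.4% in control. It was the only one of the 4 whose libraries all exceeded 1 FPKM in discs, at 1.74 ± 0.410 FPKM in amos and 4.15 ± 0.456 FPKM in control (SD, n = 3 each). For comparison, the disc level of the co-receptors Orco, Ir8a, Ir25a and Ir76b was 0.0351% to 0.165% of the adult level in amos and 0.0664% to 0.375% in control, with Ir76b the highest. The share of GABA-B-R1 was above this range in amos and within it in control. Whether disc cells made the reads behind such small shares was not tested.

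The fourth question was whether the effect of amos differs between the tissues. None of the 4 genes passed the threshold for the interaction of genotype and tissue in edgeR, against 22.3% of all 10319 genes called (14.2% higher and 8.06% lower). At an unadjusted p under 0.05 there was 1 of the 4, GABA-B-R2, beside 3737 of all 10319 genes. For GABA-B-R2 the adult effect was less negative than the disc effect by 0.71 on the log2 scale (95% interval 0.19 to 1.24, unadjusted p = 0.0120, adjusted p = 0.0525 in edgeR). DESeq2 put it past the threshold, at 0.69 with an adjusted p of 0.0285, as did ribosomal protein scaling (0.98, 0.0238), a filter that kept genes with 10 or more counts throughout (0.69, 0.0448) and leaving out amos adult library 1 (0.85, 0.0218). For sNPF the difference was 0.79 (95% interval -1.50 to 3.09, edgeR adjusted p = 0.633), for sNPF-R 0.22 (-0.74 to 1.19, 0.757) and for GABA-B-R1 -0.66 (-1.62 to 0.30, 0.309). The intervals of sNPF and sNPF-R allow differences in either direction, that of GABA-B-R1 allows little on the positive side, and the disc counts behind all 3 were low.

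Finally, genes with the most similar profile over the 12 libraries were sought by Pearson correlation of log2(CPM + 1) among 9161 genes. The correlations share these libraries, which fall into adult antennae and discs with levels far apart, and they are a description only. The closest genes to sNPF were CCHa2, another peptide gene (r = 0.992), the kinase gene sff (r = 0.991) and CG9664 (r = 0.991). To sNPF-R they were eys (r = 0.999), igl, which encodes a calmodulin-binding protein (r = 0.999), and CG5282 (r = 0.999). To GABA-B-R1 they were CG33288, the octopamine receptor gene Octbeta3R and CG7402 (all r = 0.999). CG7402 had 76.0 CPM in amos and 227 CPM in control antennae, and Octbeta3R 42.9 and 85.1 CPM. To GABA-B-R2 they were phtf (r = 0.994), FBgn0021953, which has no symbol in the tables used (r = 0.994), and Sln (r = 0.994).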

How the data were processed

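RNA was sequenced from stranded mRNA libraries of 12 samples (adult antennae and larval antennal discs of amos and control animals). The authors deposited raw counts, whole reads per gene without normalization, as 1 table for each sample, in which 15682 gene lines are followed by 5 lines of reads given to no gene. The submitters' processing notes name cutadapt 1.2.1, TopHat2 2.0.9, HTSeq 0.5.4p3 and the genome build BDGP5, whereas the study's methods name another trimmer and a FlyBase release. The strand setting and overlap mode of the counting are not given in the sources used here. The 5 lines, among which reads without a gene were 2.49% to 5.90% and multiply aligned reads 14.0% to 27.1%, were left out.

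Symbols came from the supplied gene tables for 15001 genes, and positions and exon lengths from BDGP6.54 with Ensembl release 115, since the counts carry none. Of 181 list genes 171 were matched. The genes described and the lists were chosen with earlier results of these data known. Related genes were named by rule: up to 3 with the largest increase and up to 3 with the largest decrease per list in adults, up to 2 in discs, past the threshold, plus TkR86C, NPFR, GABA-B-R3, Rdl, Tk, Gad1, the co-receptors and the 3 nearest correlates of each gene. Tissue marker lists are given as sums and, in adults, also as counts of calls, with lush, Gs2, repo and Pxn named.

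Counts were tested with edgeR 4.0.16 in R 4.3.3 (TMM, filterByExpr, quasi-likelihood test, Benjamini-Hochberg adjustment over all genes, threshold 0.05), fitted on the groups compared, and over all 12 samples for the interaction. Replicates are separate samples by label. The labels do not say that they are separate rearings, so p-values measure the spread between samples, which may be technical. CPM and FPKM were computed from reads counted on genes and the union of exons. Exact tests were run in Python 3.11.15 (scipy 1.17.1). No pair of replicates was identical, and all pairs differed by more than sampling noise. On simulated counts the adult test recovered 93 of 100 genes changed by 1 on the log2 scale, the disc test 68 and the interaction test 43. The changed genes were drawn only from those with higher mean counts than sNPF-R and GABA-B-R1 had in discs. The disc value therefore does not hold for these genes. Alternatives were DESeq2 1.42.0, total count and ribosomal protein scaling, other filters, 1 fit over all samples, a replicate block, removal of a gene length trend in fits with discs and each library left out. Ratios between pairs of genes were chosen after seeing the data.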

Additional observations from a re-analysis of the deposited data

Results flagged for a closer look

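Adult antennae and discs responded unequally to the amos genotype, by edgeR's test of the interaction of genotype and tissue (adjusted p under 0.05), for 21 of 54 related genes named and tested, and for none of the 4 tested tuning genes, beside 22.3% of all 10319 genes. The related genes were named for their large changes in adults or discs, values that enter the interaction, so their count is not set against that share. One of them, Tk, had at most 4 reads in any disc library, and no value is given for it. The values that follow are the adult effect less the disc effect on the log2 scale. Among peptide receptors and ligands they were -3.82 for TkR86C, -2.53 for ETHR, 6.36 for CNMaR and 4.12 for Ilp8. TkR86C was higher in amos in both tissues, and Ilp8 was higher in amos antennae but lower in amos discs. Among genes of GABA signalling and amine receptors they were -1.79 for Gat, -2.43 for Lcch3, -4.00 for Oamb and 3.35 for Octalpha2R. Among G proteins, effectors and insulin signaling genes they were 0.84 for Galphai, -2.34 for Galphaf, 2.45 for Irk3, -1.85 for ImpL2, 1.09 for Sdr and 0.53 for gig. Among the other genes they were 1.95 for Fur1, 2.98 for Sytalpha, 1.59 for Pal2, -0.86 for elav, 1.47 for Ir25a and 1.22 for Ir76b. Galphaf, Octalpha2R, ETHR, Sytalpha and Ir25a had at most 30 reads in any disc library, Lcch3 at most 36, and CNMaR at most 6 in any control adult library. In control discs TkR86C had 2, 14 and 1 reads and Oamb 3, 6 and 9. Irk3 had 17, 18 and 67 reads there, CNMaR 19, 15 and 56, and Sytalpha 4, 9 and 30, each highest in control library 5. That library also had the highest muscle sum of all discs (802 CPM), and its part in these values was not tested.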

How the results depend on the processing

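The results on GABA-B-R1 in adult antennae and on all 4 genes between tissues kept their direction and their side of the threshold under every alternative that could be run. With at least 10 counts in every sample, sNPF-R and GABA-B-R1 left the comparison of control tissues. In adults, sNPF turned positive with ribosomal protein scaling (0.18) and in one fit over all 12 samples (0.0053). sNPF-R lost its call under both (-0.092 and -0.255), and GABA-B-R2 under the first (-0.34). With 1 library left out, the adult log2 fold changes were -0.26 to 0.026 for sNPF, 0.01 without amos 2, and -0.36 to -0.30 for sNPF-R. Ribosomal protein scaling also raised the share of higher calls from 48.2% to 73.8% of adult calls and gave 23.7% in place of 49.7% in discs, and it moved the median of all genes to 1.73 between tissues in amos, 1.43 in control and 0.35 for the interaction. In discs, 1176 genes were called by edgeR, 2159 by DESeq2 and 2060 in one fit over all 12 samples. Leaving out 1 library gave 201 to 1376 genes, -2.04 to 0.91 for sNPF, -0.75 to 0.079 for sNPF-R and -1.38 to -1.07 for GABA-B-R2. For the interaction, leaving out 1 library gave -0.97 to 1.96 for sNPF, -0.44 to 0.43 for sNPF-R (-0.09 without amos disc 3) and 0.46 to 0.85 for GABA-B-R2, whose difference was 0.69 with DESeq2, 0.98 with ribosomal protein scaling and 0.69 with at least 10 counts in every sample. With synaptic release genes in place of pan-neuronal genes, the log2 ratios were 0.40 for sNPF, 0.17 for sNPF-R, -1.001 for GABA-B-R1 and -0.11 for GABA-B-R2.

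Disc groups share the replicate numbers 1 and 2, and amos adults and discs share 1, 2 and 3. Deviations of same-numbered libraries from their group means correlated at -0.20 and -0.12 in discs and 0.01 to 0.10 in amos. So few pairs cannot show whether the numbers pair the libraries, and the main fits used no block. With a replicate block 1474 disc genes were called, sNPF-R in discs was at 0.32, the interaction called 1045 genes in place of 2302, and the interaction of sNPF was -0.29. In amos adults against discs the block gave 8574 genes, and all 4 genes kept their call. The adult groups share no number and the control adults and discs share 1 number, so no block was fitted there. Depth limits TkR99D in all groups, and sNPF-R and GABA-B-R1 in discs.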
